A study of Mus musculus with 18 samples.

Results

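The adipogenic master regulators are 9 transcription factor genes that drive precursor cells into the fat cell fate or keep mature adipocytes in it. They are the peroxisome proliferator-activated receptors Pparg and Ppard, the retinoid X receptors Rxra and Rxrg, the CCAAT/enhancer binding proteins Cebpa, Cebpb and Cebpd, the zinc finger factor Klf15 and the liver X receptor Nr1h3. They were chosen by gene symbol for their known roles, with earlier results of these data known, and all 9 had a row among the 54347 rows of the count table and passed the filter on low counts, which left 18728 genes.

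Polyadenylated RNA was measured in 1 brown fat depot, the interscapular depot (iBAT), and in a pair of white depots, the inguinal (iWAT) and the epididymal (eWAT), of 12-week old mice on the C57BL/6N background, fed a chow diet. Wild type (wt) mice and mice carrying a CRISPR/Cas9 deletion that includes exon 1 of the long noncoding RNA gene Gm15551 (ko), homozygous as the study describes its deletion mice, gave 18 libraries, with 3 mice per genotype and each mouse giving all 3 tissues. The deletion is constitutive and comes from 1 described allele, so every cell type of the ko animals carries it.

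Differentiation runs as a cascade. Cebpb and Cebpd are induced early by hormonal and cyclic AMP signals, and they switch on Pparg and Cebpa, which then maintain each other's expression and activate the genes of lipid storage. PPAR and LXR proteins bind DNA as heterodimers with a retinoid X receptor, whereas C/EBP proteins bind as dimers among themselves. The same factors operate in brown and white fat, where coregulators such as Prdm16 and Ppargc1a direct them towards thermogenic genes.

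Total counts ranged from 14997901 to 34389586 per library. Gm15551 itself had 40 to 316 counts in the 9 wt libraries and 0 to 4 counts in the 9 ko libraries. Brown adipocyte markers (7 genes, among them Ucp1 and Cidea) summed to 9779 to 16901 CPM (counts relative to the library total after scaling by the trimmed mean of M values, TMM) in iBAT, while iWAT had 42.3 to 487.2 CPM and eWAT 19.7 to 82.0 CPM. Some libraries stood apart by markers of another tissue. Lymph node markers summed to 1399 CPM in iWAT wt replicate 3 and 608.0 CPM in iWAT ko replicate 2, against at most 29.1 CPM elsewhere. Skeletal muscle markers reached 4554 CPM in iWAT ko replicate 1, and epididymis markers 5093 CPM in eWAT ko replicate 3. The summed adipocyte markers were 8765 CPM in iWAT wt replicate 3, 13023 CPM in iWAT ko replicate 2 and 11135 CPM in eWAT ko replicate 3, and lay between 16575 and 25008 CPM in all other libraries.

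Of the 9 regulators, Cebpb and Pparg were higher in iBAT than in both white tissues, Rxrg was higher in iBAT than in eWAT, and Cebpd and Rxra were lower in iBAT than in both. Ppard, Cebpa, Klf15 and Nr1h3 passed the test in no comparison between tissues. No regulator passed the test between iWAT and eWAT, and none did between ko and wt. The tissue tests had no term for the mouse. With a block for the mouse, which pairs the tissues, Cebpb passed between iWAT and eWAT (0.87, adjusted p = 0.0305). Rxrg then also passed between iBAT and iWAT (0.82, adjusted p = 0.0163). Directions between tissues are stated on the TMM scale, on which the median log2 fold change of all tested genes was -0.14 when iBAT was set against iWAT and -0.17 when it was set against eWAT.

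**Figure D1:**
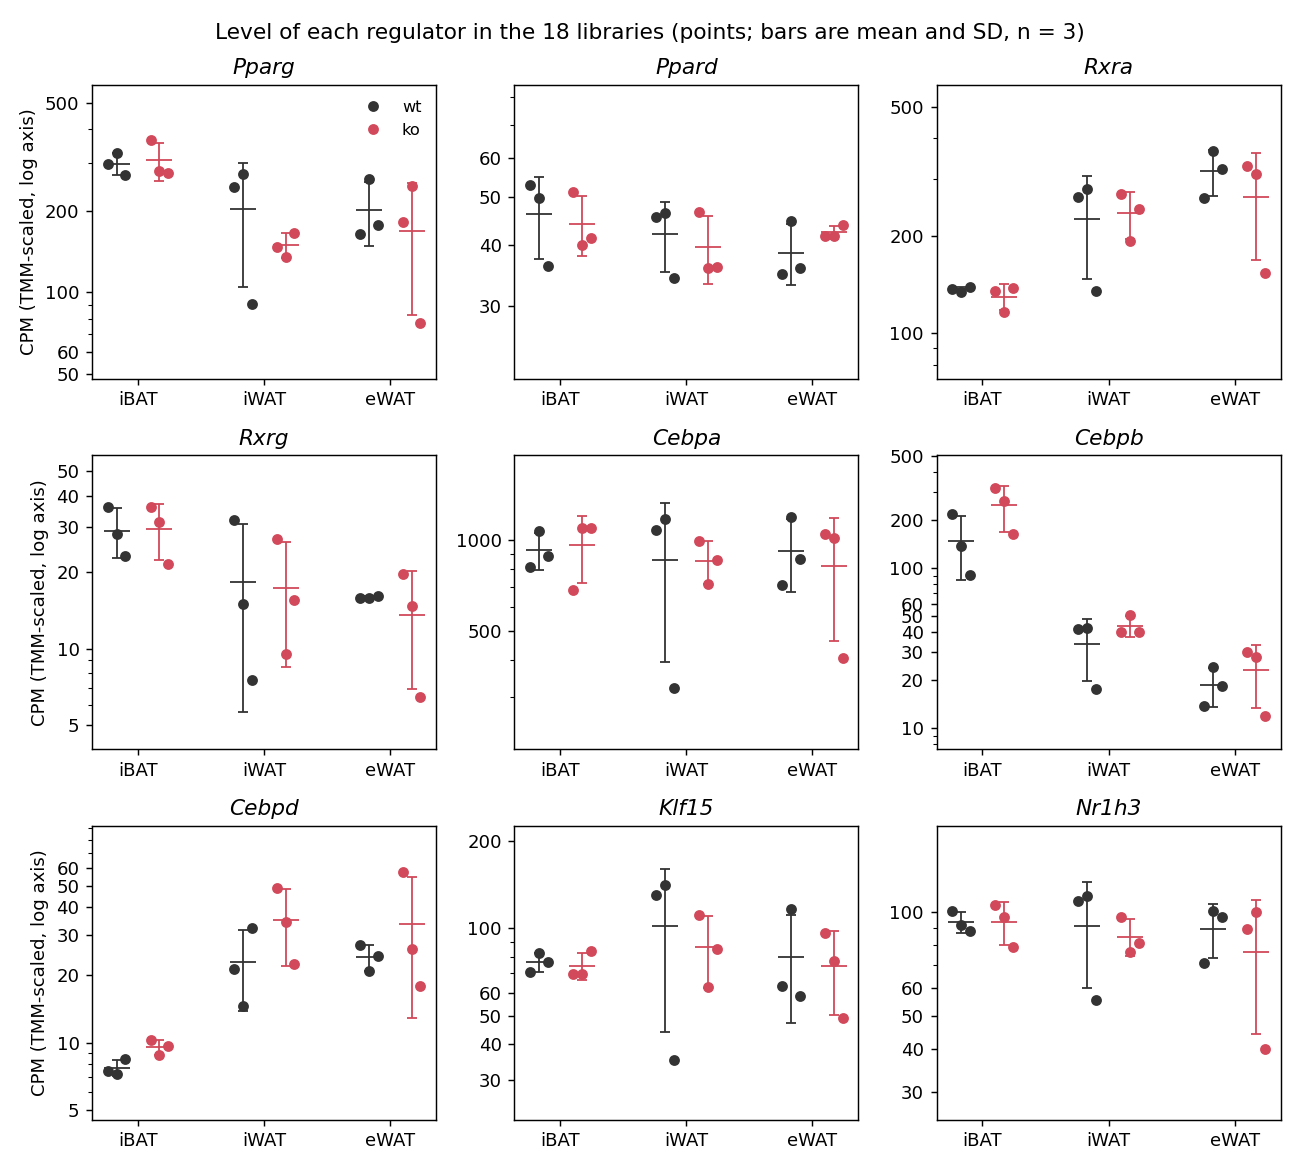
TMM-scaled CPM (log axis) of the 9 regulators by tissue, with wt libraries in black and ko libraries in red, and with the mean and SD of each group of 3. Cebpb sat between 90.5 and 315.8 CPM in iBAT and at most at 51.3 CPM in white tissue, while Cebpd showed the opposite order, with 7.26 to 10.3 CPM in iBAT and at least 14.6 CPM in white tissue.

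The choice of scaling decides the sign of the smaller differences. Transcripts of the 37 genes of the mitochondrial genome made up 22.9% to 27.0% of counts in iBAT and 3.77% to 9.64% in white tissue, and the TMM factors of iBAT, 0.617 to 0.744, lay below those of white tissue, 1.06 to 1.44. When counts were scaled by library totals alone, the median of all genes moved to -0.95 (iBAT against iWAT) and -1.04 (iBAT against eWAT), and to -0.63 and -0.69 when mitochondrial genes were left out of the totals. On total counts Pparg then differed by 0.02 and -0.13 (log2) and was not called, and Ppard, Cebpa, Klf15 and Nr1h3 were called lower in iBAT than in both white tissues. With mitochondrial genes left out of the totals, Ppard, Klf15 and Nr1h3 were called lower than in iWAT and Ppard lower than in eWAT, and the calls of Pparg (0.34, adjusted p = 0.189, and 0.23, adjusted p = 0.371) and of Rxrg against eWAT (0.49, adjusted p = 0.127) were lost. On total counts 68.4% of all genes were lower and 7.68% higher in iBAT than in iWAT, and 70.3% lower and 8.43% higher than in eWAT. Without mitochondrial genes these shares were 53.5% and 11.9% against iWAT and 54.9% and 12.9% against eWAT. Cebpb remained higher and Cebpd and Rxra remained lower in iBAT under each of 4 scalings. Relative to the median of all genes the 4 scalings gave nearly the same values, for example 0.94 to 0.97 for Pparg, 2.47 for Cebpb and -1.59 to -1.57 for Cebpd in iBAT against iWAT.

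**Figure D2:**
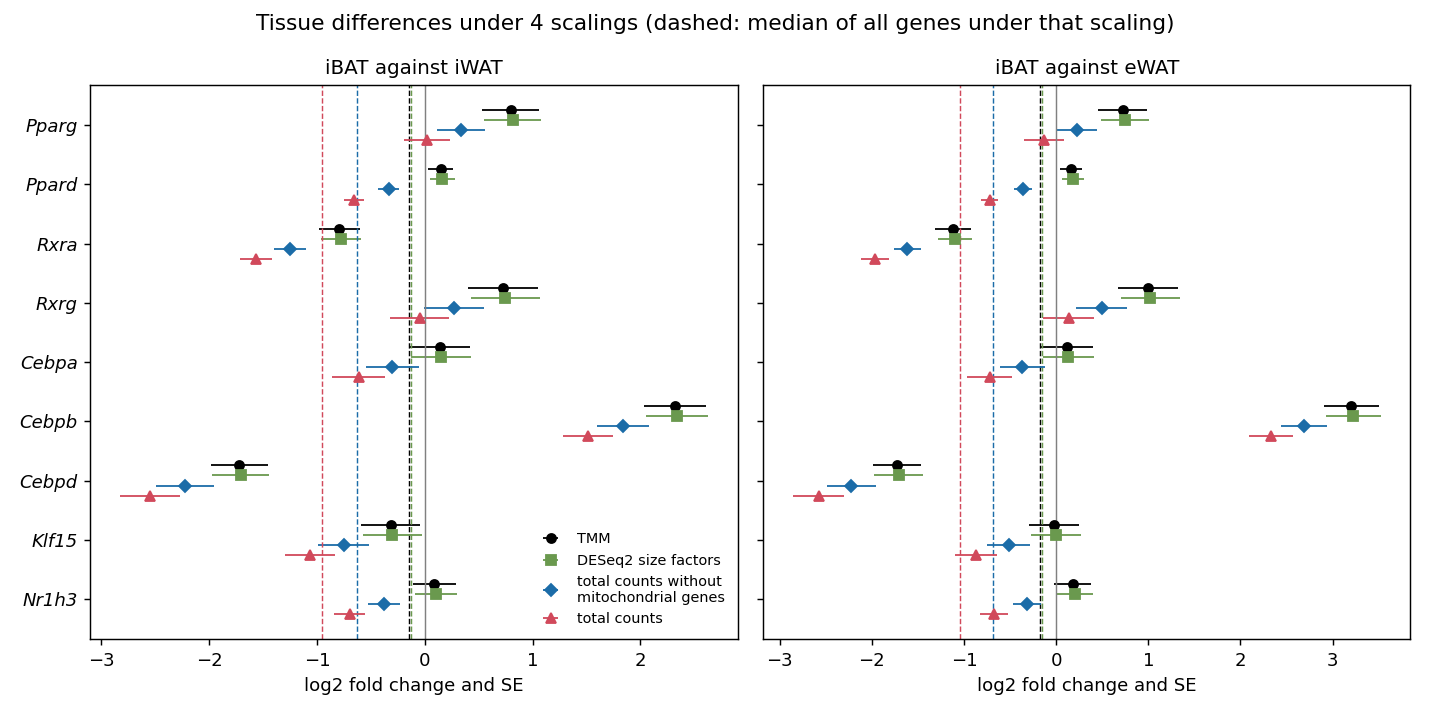
Log2 fold change and SE of each regulator in iBAT against iWAT (left) and eWAT (right) under 4 scalings of the libraries, with the median of all genes under each scaling as a dashed line. All values shift together with the median: Cebpb stays above 0, Cebpd and Rxra stay below 0, and Ppard, Cebpa and Nr1h3 lie below 0 when library totals set the scale, with or without the mitochondrial genes.

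Among the early C/EBP factors, Cebpb had the widest range. Cebpb (ENSMUSG00000056501.3, GRCm38 chromosome 2, 167688915 to 167690418, plus strand) is a gene of 1 exon whose start and most of whose length overlap Tmem189 on the other strand. The strand setting of the quantification is not given in the sources used here, so counts in the shared stretch cannot be assigned with certainty. The 250 bases before its start (chr2:167688665-167688914, RefSeq, GRCm38.p6, plus strand) are shown because cyclic AMP signalling is a textbook inducer of the gene. Capitals mark TGACG, the core letters of the cyclic AMP response element, on either strand. It was found 3 times, and the matches overlapped none of the other motifs searched. Among the other members with a promoter entry, only Klf15 held it, 2 times.
Cebpb: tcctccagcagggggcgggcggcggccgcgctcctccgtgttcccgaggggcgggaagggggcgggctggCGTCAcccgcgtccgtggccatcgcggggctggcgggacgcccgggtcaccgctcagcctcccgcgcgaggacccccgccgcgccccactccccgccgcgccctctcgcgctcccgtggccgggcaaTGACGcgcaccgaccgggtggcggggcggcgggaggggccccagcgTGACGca
Of 32851 mouse promoters of the same length, 17.8% held at least 1 TGACG. A match of letters is a description and not a binding site.

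Cebpb measured 217.9, 137.0 and 90.5 CPM in iBAT wt and 315.8, 264.0 and 162.3 CPM in iBAT ko. In iWAT it was 41.8, 42.1 and 17.5 CPM in wt and 39.8, 51.3 and 40.1 CPM in ko. In eWAT it was 13.8, 24.1 and 18.3 CPM in wt and 29.99, 27.7 and 11.9 CPM in ko. Every iBAT library lay above every white library, and the 2 white tissues overlapped. The log2 fold change was 2.32 ± 0.29 (SE, adjusted p = 4.51e-06) for iBAT against iWAT and 3.20 ± 0.30 (9.20-fold, adjusted p = 1.36e-07) for iBAT against eWAT, with 6 libraries per tissue. Between iWAT and eWAT it was 0.88 ± 0.28 (adjusted p = 0.0545), short of the threshold, and a block for the mouse gave 0.87 (adjusted p = 0.0305). It was also called without wt replicate 3 (1.01, adjusted p = 0.0371) and without the 4 libraries with markers of another tissue (0.95, adjusted p = 0.0442). Immediate early genes (8 genes such as Fos and Jun, which respond to acute stimuli) summed to 712.1 CPM in iBAT ko replicate 2, 156.7 and 307.4 CPM in the other iBAT ko libraries and 113.4 to 137.1 CPM in iBAT wt. Without that library 4 members, Cebpb, Pparg, Rxra and Cebpd, were still called between iBAT and iWAT, and 5 between iBAT and eWAT. The part of these genes in the level of Cebpb was not tested.

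Cebpd (ENSMUSG00000071637.5, chromosome 16, 15887286 to 15891031, plus strand), the partner of Cebpb in the early phase, went the other way. Like Cebpb it has 1 exon, and it overlaps Spidr on the other strand. It measured 7.49, 7.26 and 8.47 CPM in iBAT wt and 10.3, 8.79 and 9.66 CPM in iBAT ko. The iWAT values were 21.3, 14.6 and 32.4 CPM in wt and 48.9, 34.5 and 22.3 CPM in ko, and the eWAT values 27.2, 20.8 and 24.2 CPM in wt and 57.7, 26.1 and 17.9 CPM in ko. No iBAT library reached the lowest white library. Its log2 fold change was -1.72 ± 0.26 (3.29-fold lower in iBAT, adjusted p = 3.84e-05) against iWAT and -1.73 ± 0.26 (3.31-fold lower, adjusted p = 3.05e-05) against eWAT, and -0.01 ± 0.25 between the white tissues. Of the markers of adipocyte progenitors, 8 of 8 were lower in iBAT than in iWAT and 6 of 8 lower than in eWAT. The shares of all genes lower in iBAT were 30.3% and 30.2%. All 8 were detected in every library, with sums of 334.1 to 472.2 CPM in iBAT against 1531 to 5035 CPM (iWAT) and 884.6 to 2130 CPM (eWAT). Between iWAT and eWAT these markers did not move with Cebpd. There 4 of 8 were called higher in iWAT, with a median log2 fold change of 0.71 over the 8, where 10.2% of all genes were called. Macrophage markers were also lower in iBAT, 9 of 9 against each white tissue, beside the same 30.3% and 30.2% of all genes. All 9 were detected in every library, with sums of 90.6 to 223.0 CPM in iBAT against 373.9 to 2054 CPM (iWAT) and 216.1 to 750.2 CPM (eWAT). Their part in the Cebpd result was not tested, and in whole tissue fewer cells of a type and less RNA per cell cannot be told apart.

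Cebpa (ENSMUSG00000034957.10, chromosome 7, 35119293 to 35121928, plus strand), which acts with Pparg in terminal differentiation, was the most abundant regulator and did not pass the test. It ranged from 683.4 to 1101 CPM in iBAT (median 979.2), from 323.1 to 1172 CPM in iWAT (median 926.4) and from 406.4 to 1195 CPM in eWAT (median 939.7). The 3 tissues overlapped widely. The log2 fold change of iBAT was 0.14 (95% interval -0.42 to 0.69) against iWAT and 0.11 (-0.44 to 0.67) against eWAT.

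Pparg (ENSMUSG00000000440.12, chromosome 6, 115360951 to 115490399, plus strand), the receptor without which adipocytes do not form, is read from several starts. The start that makes the adipocyte form PPARG2 coincides with the first base of transcript Pparg-201, and the 250 bases before it (chr6:115421816-115422065, plus strand) are shown because C/EBP factors are known to act on Pparg. Capitals mark TTGCNNAA, the core of the C/EBP palindrome, on either strand, found 2 times and overlapping no other motif searched.
Pparg2 start: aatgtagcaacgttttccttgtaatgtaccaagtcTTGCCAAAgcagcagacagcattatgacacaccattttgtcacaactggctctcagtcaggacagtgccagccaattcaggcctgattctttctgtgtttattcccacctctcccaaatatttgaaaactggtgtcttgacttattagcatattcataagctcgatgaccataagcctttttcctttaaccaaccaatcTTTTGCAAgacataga
TTGCNNAA was present in 9.56% of the 32851 promoters. It was absent from the 250 bases before the other 2 Pparg starts, and among the other members it was found only before the second Rxrg start, 1 time.

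Pparg measured 298.0, 326.5 and 270.8 CPM in iBAT wt and 363.9, 279.4 and 276.1 CPM in iBAT ko. The iWAT values were 245.5, 272.6 and 90.6 CPM in wt and 147.0, 135.4 and 165.9 CPM in ko, and the eWAT values 163.9, 262.4 and 177.3 CPM in wt and 181.6, 245.8 and 76.8 CPM in ko. All iBAT libraries exceeded all eWAT libraries, while iWAT wt replicate 2 reached into the iBAT range. In log2 terms the difference was 0.80 ± 0.27 (1.74-fold, adjusted p = 0.0176) for iBAT against iWAT and 0.72 ± 0.26 (1.65-fold, adjusted p = 0.0286) for iBAT against eWAT. The call against iWAT was lost without the 4 libraries that held markers of another tissue (0.42, adjusted p = 0.0825), without ko replicate 1 (adjusted p = 0.0848) and without ko replicate 2 (adjusted p = 0.054). The call against eWAT was lost without wt replicate 1 (adjusted p = 0.0791), ko replicate 1 (adjusted p = 0.0991) or ko replicate 3 (adjusted p = 0.0761), and with no filter on low counts (0.68, adjusted p = 0.0575).

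Ppard (ENSMUSG00000002250.16, chromosome 17, 28232700 to 28301474, plus strand) is a broadly expressed relative of Pparg that drives fatty acid oxidation genes. Among the regulators it varied least over the 18 libraries on the TMM scale, with a root mean square of centred log2 CPM of 0.19. It ranged from 36.3 to 52.9 CPM in iBAT, from 34.2 to 46.7 CPM in iWAT and from 34.9 to 44.8 CPM in eWAT. The log2 fold change of iBAT was 0.15 (95% interval -0.08 to 0.38) against iWAT and 0.16 (-0.07 to 0.39) against eWAT. On total counts both turned negative, -0.66 and -0.72, still above the median of all genes on that scale.

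The retinoid X receptors, the partners of PPAR and LXR on DNA, differed in opposite directions against eWAT on the TMM scale. Rxra (ENSMUSG00000015846.15 in the count table, with positions from ENSMUSG00000015846.14 of GENCODE M21, chromosome 2, 27676440 to 27762957, plus strand), the widely expressed form, has GC-rich sequence before its first start. The 250 bases before its first start (chr2:27676951-27677200, plus strand) had a GC content of 81.2% and are shown as an example of such a start. The second Rxra start had 55.2%, and the 3 Pparg starts had 82.4%, 63.6% and, at the Pparg2 start, 40.8%. Capitals mark the GC box GGGCGG on either strand, found 3 times here, 1 and 2 times before the first and second Pparg starts, not before the Pparg2 start or the second Rxra start, and in 32.7% of all promoters.
Rxra: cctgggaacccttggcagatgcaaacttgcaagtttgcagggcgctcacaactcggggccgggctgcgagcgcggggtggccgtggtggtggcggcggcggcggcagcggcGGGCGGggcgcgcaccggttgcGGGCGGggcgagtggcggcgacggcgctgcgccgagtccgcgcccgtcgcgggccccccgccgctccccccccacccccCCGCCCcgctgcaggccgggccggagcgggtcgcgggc
No motif was shared by the printed promoters of Rxra and Pparg among the 5 searched.

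Rxra measured 136.7, 134.0 and 139.0 CPM in iBAT wt and 134.7, 115.9 and 138.4 CPM in iBAT ko. The iWAT values were 262.6, 279.7 and 135.0 CPM in wt and 268.7, 192.7 and 242.1 CPM in ko, and the eWAT values 262.3, 364.9 and 320.7 CPM in wt and 327.7, 311.2 and 153.3 CPM in ko. All iBAT libraries lay below all eWAT libraries, and against iWAT only iWAT wt replicate 3, with its low adipocyte markers, reached the iBAT range. On the log2 scale it differed by -0.79 ± 0.19 (1.73-fold lower in iBAT, adjusted p = 0.00217) against iWAT and -1.12 ± 0.19 (2.17-fold lower, adjusted p = 0.000105) against eWAT.

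Rxrg (ENSMUSG00000015843.10, chromosome 1, 167598384 to 167639623, plus strand), a form with restricted expression, was 36.0, 28.4 and 23.1 CPM in iBAT wt and 36.0, 31.5 and 21.6 CPM in iBAT ko. In iWAT it was 32.1, 15.04 and 7.55 CPM in wt and 27.0, 9.50 and 15.5 CPM in ko, and in eWAT 15.9, 15.8 and 16.1 CPM in wt and 19.7, 14.7 and 6.44 CPM in ko. The iBAT libraries exceeded all eWAT libraries but overlapped the iWAT libraries of wt replicate 1 and ko replicate 1. The difference (log2) was 0.998 ± 0.32 (adjusted p = 0.0153) for iBAT against eWAT and 0.73 ± 0.32 (adjusted p = 0.0658) for iBAT against iWAT, and the latter passed the threshold once the mouse was a block (0.82, adjusted p = 0.0163) or wt replicate 1 was left out (0.93, adjusted p = 0.0357). On total counts the values were 0.13 and -0.05 and neither was called.

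Klf15 (ENSMUSG00000030087.11, chromosome 6, 90462576 to 90475238, plus strand), a glucocorticoid-responsive factor of amino acid and glucose metabolism, ranged from 69.5 to 83.8 CPM in iBAT, from 35.1 to 141.1 CPM in iWAT and from 49.1 to 116.5 CPM in eWAT. The iBAT libraries were tightly grouped inside the wider white ranges. Its log2 fold change of iBAT was -0.32 (95% interval -0.85 to 0.22) against iWAT and -0.02 (-0.56 to 0.51) against eWAT. Without the 4 libraries with markers of another tissue it was -0.64 (adjusted p = 0.0196) against iWAT. On total counts Klf15 was called lower in iBAT, by edgeR at -1.06 (adjusted p = 0.000575) against iWAT and -0.87 (adjusted p = 0.00271) against eWAT, and without mitochondrial genes in the totals at -0.75 (adjusted p = 0.0104) and, not called, -0.52 (adjusted p = 0.0613).

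Nr1h3 (ENSMUSG00000002108.10, chromosome 2, 91184061 to 91202834, minus strand) encodes LXRα, a sensor of oxidised cholesterol, and shares sequence on its own strand with the transcript Gm13783. It ranged from 79.0 to 105.1 CPM in iBAT, from 55.3 to 111.1 CPM in iWAT and from 39.9 to 100.5 CPM in eWAT. Its log2 fold change of iBAT was 0.09 (95% interval -0.30 to 0.48) against iWAT and 0.18 (-0.21 to 0.57) against eWAT, and total counts gave -0.70 and -0.67.

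**Figure D3:**
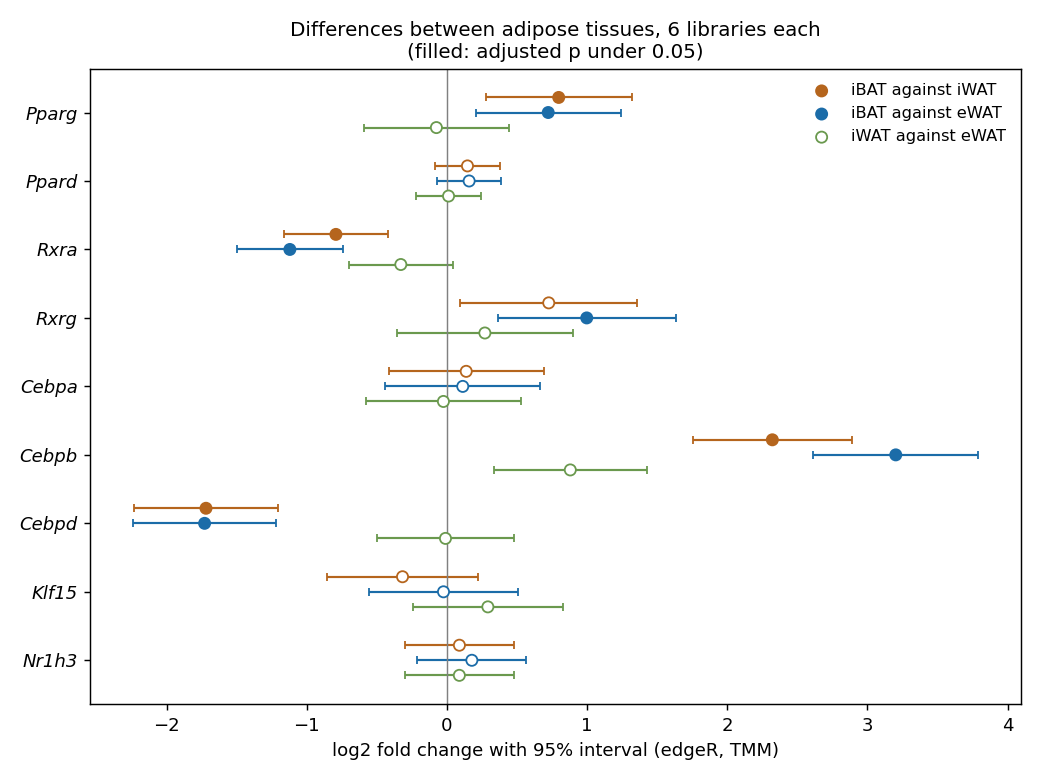
Log2 fold changes (edgeR on TMM-scaled counts) with 95% intervals for the 3 comparisons of tissues, with filled points where the adjusted p was under 0.05. Cebpb lies farthest to the right, at 2.32 and 3.20, Cebpd farthest to the left, at -1.72 and -1.73, and none of the 9 is filled for iWAT against eWAT.

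Counted over the family, 2 members were higher and 2 lower in iBAT than in iWAT, where 24.0% of all genes were higher and 30.3% lower. Against eWAT, 3 were higher and 2 lower, where 24.4% of all genes were higher and 30.2% lower. With 9 members these counts are near the background, so the shares say nothing particular about the family, and the median log2 fold change of the 9 was 0.14 and 0.16, against -0.14 and -0.17 over all genes. Between iWAT and eWAT edgeR called 0 members, where 10.2% of all genes were called, with 1 member at an unadjusted p under 0.05 and 1 and 2 members called by DESeq2 and limma. With a block for the mouse edgeR called 1, Cebpb. Libraries did not overlap for 2 members between iBAT and iWAT, 5 between iBAT and eWAT and 0 between iWAT and eWAT, where the shares of all genes were 34.6%, 37.3% and 4.62%.

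Contrasts between the wt groups, with 3 libraries per tissue, took their spread from all 18 libraries, ko included. In them edgeR called Cebpb (2.13 ± 0.42, adjusted p = 0.00156) and Cebpd (-1.56 ± 0.39, adjusted p = 0.00686) for iBAT against iWAT. Cebpb (2.98 ± 0.44, adjusted p = 0.000109), Cebpd (-1.64 ± 0.39, adjusted p = 0.00437) and Rxra (-1.21 ± 0.28, adjusted p = 0.00407) were called for iBAT against eWAT. Rxra against iWAT had a value of -0.73 ± 0.28 (adjusted p = 0.0581). Calls of edgeR were lost for Cebpd against iWAT without wt replicate 1 (adjusted p = 0.0551) or 3 (adjusted p = 0.0901), for Cebpd against eWAT without wt replicate 1 (adjusted p = 0.0663) and for Rxra against eWAT without wt replicate 2 (adjusted p = 0.0568). Rxra against iWAT was called without wt replicate 3 (adjusted p = 0.0443) or ko replicate 3 (adjusted p = 0.0371). It was also called by DESeq2 (adjusted p = 0.0361), by limma (-0.96, adjusted p = 7.65e-05) and with at least 10 counts in every library (adjusted p = 0.0222). Both scalings by library totals called it as well. Without the 4 libraries with markers of another tissue its value was -0.99. The remaining alternatives did not call it (highest adjusted p = 0.328). Pparg, with 0.56 and 0.57, was not called by edgeR on the TMM scale in wt mice (adjusted p = 0.283 and 0.276). Against eWAT limma called Pparg (0.56, adjusted p = 0.0202) and Rxrg (0.85, adjusted p = 0.0173), and against iWAT no alternative called either. The shares of all genes called were 35.3% in both comparisons and 1.56% for iWAT against eWAT, where edgeR and DESeq2 called 0 members, 0 had an unadjusted p under 0.05, and limma called 1. These contrasts share their wt libraries with those over all mice.

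Ratios of counts between 2 regulators in the same library do not depend on the scaling of libraries between tissues. They were chosen after the values were seen and carry no test. Of 8 ratios computed, 3 overlapped between iBAT and white tissue, namely Pparg to Cebpa, Pparg to Ppard and Cebpa to Cebpd. The ratio of Pparg to Klf15, with 3.29 to 5.23 in iBAT and at most 3.19 in white tissue, did not. The ratio of Cebpb to Cebpd was 10.7 to 30.8 in iBAT (median 24.0), 0.541 to 2.88 in iWAT (median 1.64) and 0.509 to 1.16 in eWAT (median 0.711). Cebpb counts thus exceeded Cebpd counts in all iBAT libraries, and in white tissue the order varied between libraries. The ratio of Pparg to Rxra was 1.95 to 2.70 in iBAT, against 0.547 to 0.975 (iWAT) and 0.501 to 0.790 (eWAT). Pparg counts were above those of Rxra in all 6 iBAT libraries and below them in all 12 white libraries. The ratio of Rxrg to Rxra was 0.156 to 0.272 in iBAT, against 0.0493 to 0.122 (iWAT) and 0.0420 to 0.0605 (eWAT). Only the ratio of Cebpb to Cebpa, among the 4 plotted, kept all 3 tissues apart, at 0.102 to 0.462 (iBAT), 0.0359 to 0.0720 (iWAT) and 0.0196 to 0.0292 (eWAT).

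**Figure D4:**
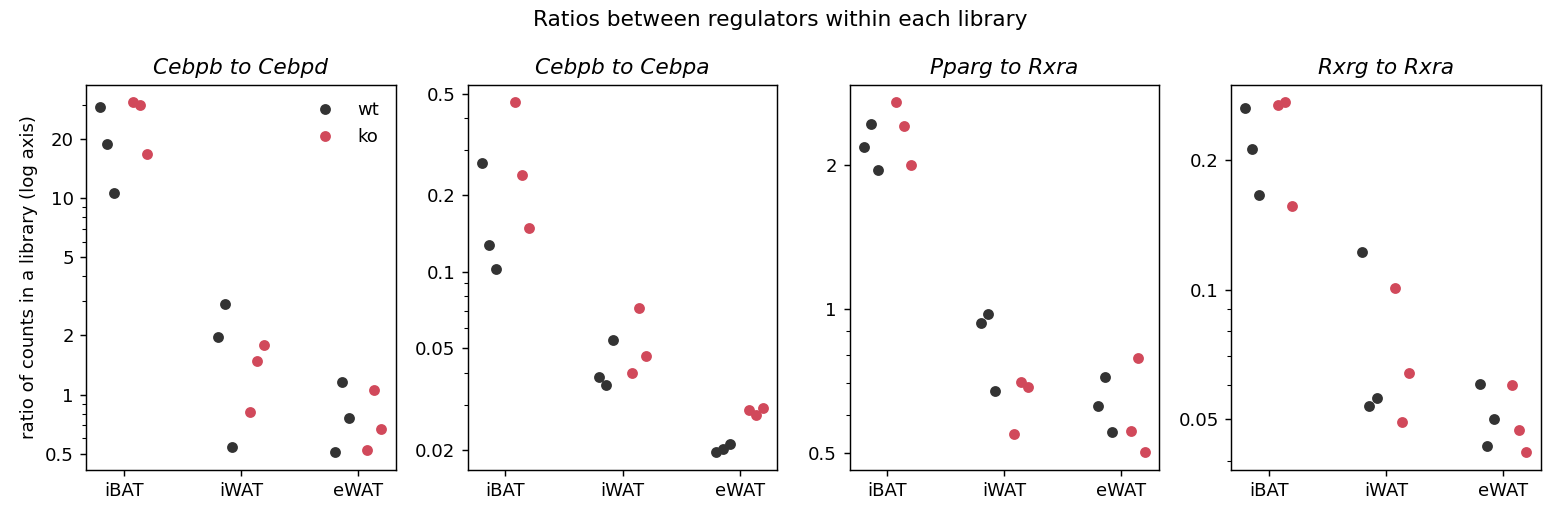
Ratio of the counts of 2 regulators in the same library (log axis) by tissue, with wt in black and ko in red and 1 point per library. The iBAT points lie above all white points in each of the 4 panels, which show 4 of the 8 ratios computed, at 10.7 to 30.8 for Cebpb to Cebpd and at 1.95 to 2.70 for Pparg to Rxra.

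Levels of different genes were compared per length, as CPM per kilobase of the median coding transcript (GENCODE M21). In iBAT the order was Cebpa (mean 393.9 ± 72.7, SD, n = 6), Pparg (171.2 ± 20.6), Cebpb (131.6 ± 55.8), Rxra (66.9 ± 4.34), Nr1h3 (52.8 ± 5.29), Klf15 (31.8 ± 2.75), Ppard (30.4 ± 4.62), Rxrg (16.0 ± 3.39) and Cebpd (2.31 ± 0.31). The ranges of Pparg and Cebpb overlapped, as did those of Cebpb and Rxra, Rxra and Nr1h3, and Klf15 and Ppard. In eWAT the order began with Cebpa (364.5 ± 118.0), Rxra (145.8 ± 37.5) and Pparg (104.5 ± 37.5), whose ranges overlapped one after the other, and Cebpb stood in place 7 with 13.95 ± 4.95, after place 3 in iBAT. In iWAT Cebpb was also in place 7, with 25.8 ± 7.48. Places depend on the length used. With all exons counted, Cebpa stayed in place 1 in each tissue, while Cebpb came before Pparg in iBAT and Rxra took place 6 there. In both white tissues Pparg then came before Rxra, Cebpb took place 6 and Ppard place 9.

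The regulators were also expressed relative to adipocyte markers. When each regulator was expressed relative to the summed adipocyte markers (7 genes) of its library, the spread over libraries became smaller for 8 of 9 regulators in eWAT and 7 of 9 in iWAT, but for 2 of 9 in iBAT, where the adipocyte sums varied little (20730 to 22916 CPM). For Nr1h3 in eWAT the SD of log2 values went from 0.52 to 0.09, and for Rxra in eWAT from 0.45 to 0.12. Ppard and Cebpd did not behave this way in iWAT, where their SD rose from 0.21 to 0.48 and from 0.62 to 1.05, and the SD of Ppard also rose in eWAT, from 0.15 to 0.51.

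The comparison of ko with wt asked whether loss of Gm15551 shifts the regulators. Across tissues edgeR called 0 of the 9 members, where 0.00534% of all genes were called. That fit had no term for the mouse, so its SE, p and intervals treat the 3 libraries of a mouse as independent. The log2 fold changes ran from -0.22 for Pparg to 0.48 for Cebpd. Cebpd (0.48 ± 0.21) was the single member with an unadjusted p under 0.05, where 2.19% of all genes were below that limit, and its adjusted p was 1. Cebpb differed by 0.47 ± 0.23 and also had an adjusted p of 1. Leaving out ko replicate 1 took Cebpd to 0.15, and leaving out wt replicate 3 took Cebpb to 0.27. DESeq2 and limma called 0 members as well.

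Within tissues edgeR, DESeq2 and limma called 0 members in iBAT, iWAT and eWAT, with 0 members at an unadjusted p under 0.05, where the shares of all genes called by edgeR were 0%, 0% and 0.00534%. The genotype by tissue interaction was called for 0 members by the same 3 tools (edgeR unadjusted p from 0.591 for Ppard to 0.939 for Klf15), and for 0% of all genes. Cebpb in iBAT averaged 148.5 CPM in wt and 247.4 CPM in ko, a log2 fold change of 0.74 (95% interval -0.06 to 1.54), and its wt and ko libraries overlapped. The immediate early sums of iBAT were higher in all ko than in all wt libraries, with a median log2 fold change of 1.43 over the 8 genes, none of them called, and their part in the Cebpb values was not tested. Cebpd in iBAT was the single member whose libraries did not overlap between genotypes, all ko libraries being higher (exact permutation test, two-sided, p = 0.1, adjusted p = 1 over 27 tests), and 0.1 is the smallest p that 3 against 3 libraries allow. In iWAT and eWAT 0 members were without overlap. The shares of all genes without overlap between genotypes were 4.94% in iBAT, 4.92% in iWAT and 5.25% in eWAT. The 95% intervals of the differences across tissues were narrowest for Ppard (-0.20 to 0.18) and widest for Rxrg (-0.60 to 0.42).

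**Figure D5:**
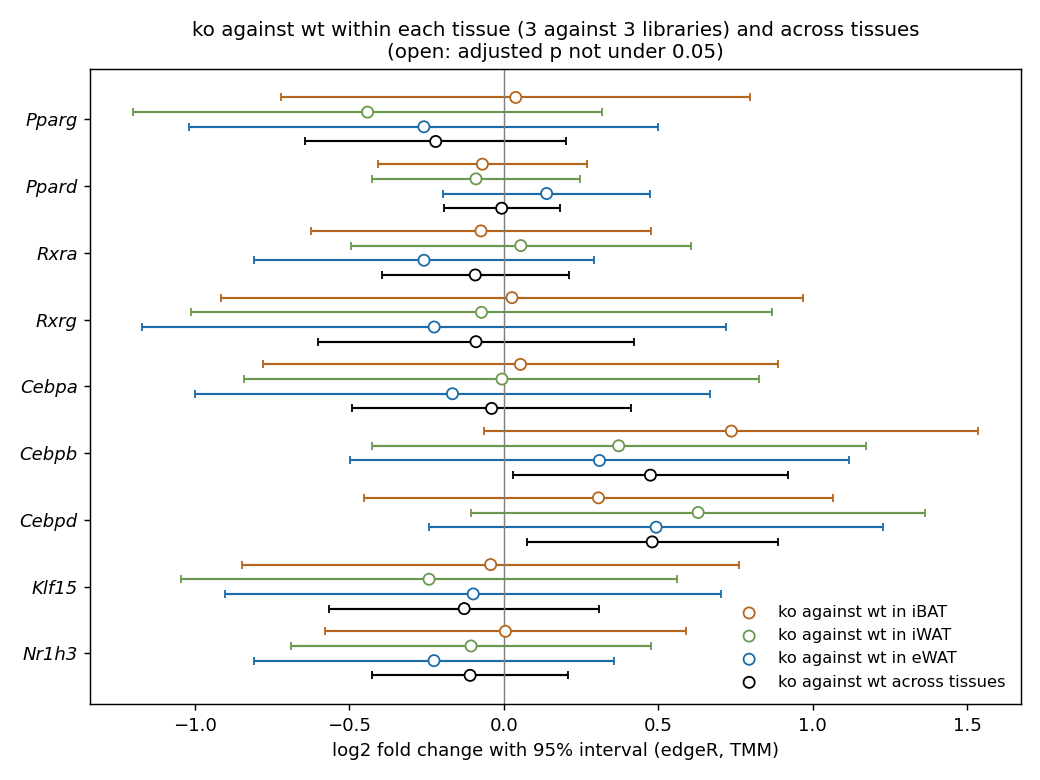
Log2 fold changes of ko against wt with 95% intervals in each tissue (3 against 3 libraries) and across tissues (black). All points are open, since no adjusted p was under 0.05, and the values across tissues lie between -0.22 for Pparg and 0.48 for Cebpd.

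The close relatives of the regulators give the dimer partners and alternatives that the family leaves out. Of 6, Cebpe was below the filter and 5 were tested, and 4 were higher in iBAT than in both white tissues on the TMM scale, where 24.0% and 24.4% of all genes were higher. Ppara, the PPAR of fatty acid oxidation, ranged from 42.0 to 173 CPM in iBAT, while iWAT had 0.791 to 9.67 CPM and eWAT 1.39 to 3.08 CPM, with log2 fold changes of 3.97 ± 0.44 (adjusted p = 1.35e-06) and 5.30 ± 0.48 (adjusted p = 8.84e-08). Rxrb, the third retinoid X receptor, differed by 1.08 and 1.25, and Nr1h2, which encodes LXRβ, by 0.66 and 0.67, both called. Ddit3, a C/EBP factor of the stress response that blocks its partners, differed by 0.84 and 0.83 and was called too. On total counts Nr1h2 turned to -0.15 and -0.21 and Ddit3 to 0.05 and -0.04, none of them called, while Ppara (3.18 and 4.40) and Rxrb (0.26 and 0.37) were still higher. In both comparisons that scale left 2 relatives higher and 1 lower, beside the 7.68% and 8.43% of all genes higher and the 68.4% and 70.3% lower there. Of the 3 retinoid X receptor genes, Rxra was called lower in iBAT on the TMM scale and on total counts, Rxrb was called higher on both, and Rxrg was called higher against eWAT on the TMM scale alone of these.

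Activators and repressors of adipogenesis outside the family included genes called in both directions, as all genes did, with 24.0% higher and 30.3% lower in iBAT than in iWAT and 24.4% and 30.2% against eWAT. Of 12 activators, 1 was higher and 6 lower in iBAT than in iWAT, and 4 were higher and 5 lower than in eWAT. Ebf2, a factor of brown fat identity, was higher (0.82 and 0.78, but 0.06 and -0.06 and not called on total counts), and Klf4, which acts upstream of Cebpb, was lower (-1.12 and -0.79). Of 11 repressors, 2 were higher and 6 lower than in iWAT, and 1 was higher and 6 lower than in eWAT. Dlk1, the preadipocyte factor, was higher in iBAT (1.86 and 2.42), and Zfp521 (-2.51 and -2.19), Runx1t1 (-1.95 and -1.50) and Nr2f2 (-0.97 and -1.33) were lower. Wnt10b, a ligand that holds precursors back, was higher in iWAT than in eWAT (1.93 ± 0.51, adjusted p = 0.0248). The median log2 fold changes were -0.20 and -0.19 for the activators and -0.49 and -0.34 for the repressors, against -0.14 and -0.17 over all genes. On total counts, where 68.4% and 70.3% of all genes were lower in iBAT and 7.68% and 8.43% higher, 0 activators were higher and 10 and 9 lower, and 1 repressor, Dlk1, was higher and 9 and 10 lower.

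Coregulators of nuclear receptors adjust how strongly these factors act on their targets. Of 16, 4 were higher and 3 lower in iBAT than in iWAT (24.0% and 30.3% of all genes), and 5 were higher and 4 lower than in eWAT (24.4% and 30.2% of all genes). The coactivators Ppargc1b (3.76 and 4.07) and Ppargc1a (3.34 and 3.91) and the brown fat coregulator Prdm16 (0.93 and 2.11) were higher in iBAT, Prdm16 on total counts by 0.16 (not called) and 1.22. On that scale 2 and 3 coregulators were higher and 12 lower in both comparisons, beside 7.68% and 8.43% of all genes higher and 68.4% and 70.3% lower. Nrip1, a corepressor of oxidative genes, was lower, with 10.03 to 22.4 CPM in iBAT against 43.6 to 109 CPM (iWAT) and 98.5 to 124 CPM (eWAT) (log2 fold change -2.22 and -2.84). Prdm16 was also the 1 coregulator that was called between iWAT and eWAT (1.18 ± 0.31, adjusted p = 0.0248).

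Target genes of the regulators were called in both directions. Of 19 known PPARG targets, 6 were higher and 3 lower in iBAT than in iWAT (24.0% and 30.3% of all genes), 8 were higher and 4 lower than in eWAT (24.4% and 30.2%), and 4 were higher in iWAT than in eWAT, where 10.2% of all genes were called in either direction. The targets with the smallest p among the higher ones, Cidea (5.10 and 10.22), Ucp1 (8.43 and 13.93) and Gpd1 (2.80 and 4.22), include 2 of the brown adipocyte markers, and Ucp1 had 0 counts in some eWAT libraries, so its fitted value there depends on the prior count. Retn (-3.28 and -3.86), Cidec (-1.01 and -1.42) and Adipoq (-0.93 and -1.08), genes of white adipocyte secretion and lipid droplets, were lower. On total counts 6 PPARG targets were higher and 9 lower in both comparisons, beside 7.68% and 8.43% of all genes higher and 68.4% and 70.3% lower. Among the PPARD targets, Pdk4 (4.37 and 5.98) and Plin2 (1.71 and 2.36) were higher, and Cpt1a (-1.60 and -2.11) was lower.

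Targets of LXR were called in both directions as well. Of 10, 4 were higher and 3 lower in iBAT than in iWAT (24.0% and 30.3% of all genes), and 5 were higher and 2 lower than in eWAT (24.4% and 30.2%). Fasn (1.88 and 3.29) and Mlxipl (1.90 and 2.20), an enzyme and a regulator of fatty acid synthesis, were higher, and Abca1 (-0.69 and -0.74) and Apoe (-1.23 and -1.37), genes of cholesterol efflux, were lower, all 4 also on total counts. On that scale 2 and 3 targets were higher and 6 lower, beside 7.68% and 8.43% of all genes higher and 68.4% and 70.3% lower. Of 5 KLF15 targets, Tat was below the filter, 1 was higher in both comparisons and 1 and 2 were lower, or 1 higher and 3 lower on total counts. Slc2a4, the insulin-responsive glucose transporter, was higher (1.83 and 2.37) and Bcat2, an enzyme of branched-chain amino acid breakdown, was lower (-0.83 and -0.75). In the comparison of ko with wt across tissues edgeR called 0 genes of every list.

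The genes whose profiles were nearest to each regulator were found by the root mean square difference of centred log2 CPM over the 18 libraries, which share tissue and adipocyte content. For Pparg they were Vegfb (0.23) and Idh1 (0.23), where the profile of Pparg itself had a size of 0.61 on that measure. For Cebpb they were B230119M05Rik (0.38) and Tspan18 (0.39) at a size of 1.45, and for Cebpd Cercam (0.29) and Pam (0.33) at 0.90. A gene near to Rxra was Kctd17 (0.16), and Rxrg was nearest to Epas1 (0.23) and Cd59a (0.24). The nearest to Cebpa were Mrap (0.21) and Rab34 (0.22), to Klf15 Hnmt (0.21) and Prkd1 (0.23), to Nr1h3 Fcgrt (0.13) and Bscl2 (0.14), and to Ppard Fundc1 (0.11) and Rab5a (0.12). None of these genes was itself a regulator of the family.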

How the data were processed

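PolyA libraries of 3 adipose tissues from 6 mice were read on a NovaSeq as paired ends. The authors filtered reads with cutadapt, ran salmon on the transcripts of GENCODE M22 (GRCm38), alone or joined with RNAcentral, and deposited the estimated counts of each gene, rounded and not normalised. Which reference, the strand setting and the salmon version are not given in the sources used here. Submitters' processing notes name DESeq2 and bcl2fastq as well.

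Groups were taken from the labels. Counts were filtered with filterByExpr by group (18728 genes), scaled by TMM and tested in edgeR 4.0.16 (R 4.3.3) by quasi-likelihood, with Benjamini-Hochberg adjustment over all genes and a threshold of 0.05. Tissue + genotype terms, without a term for the mouse, gave the tissue contrasts and ko against wt across tissues. Group means gave the contrasts within tissues and within wt and the interaction. SE was derived from the F statistic, and 95% intervals use the normal approximation. CPM values are TMM-scaled, and a count of 0 allows up to 3 counts (0.0728 to 0.235 CPM, counting error only). The permutation test used log2(CPM + 0.1). DESeq2 1.42.0 and limma 3.58.1 were alternatives, beside other scalings and filters, a block and omitted libraries. Scripts were tested on simulated counts.

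Libraries with the same genotype and number came from the same mouse by the labels, which pairs the tissues. The tissue correlations of deviations within a mouse were -0.17 to 0.33. The members and gene lists were chosen with earlier results of these data known. The text names all members, up to 3 genes per direction of each list by smallest p in a tissue contrast, any list gene called between genotypes, list genes below the filter and the 2 nearest profiles, except for results that are not reported here. Promoters came from RefSeq (GRCm38.p6) and matched 8 of 9 members, with no entry for Cebpd. The deposited symbols of mitochondrial genes have no prefix, so these 37 genes were found by gene ID. Total-count scalings and the omission of iBAT ko replicate 2 were added after the data were seen.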

Additional observations from a re-analysis of the deposited data

Results flagged for a closer look

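The level of each regulator was compared over the 6 libraries of each tissue, and 4 of 27 sets held a library whose distance to its neighbour, as a share of the whole range, was over the 95% limit of Dixon's test for 6 values. For independent sets of normal values from 1 population about 1 in 20, or 1.35 of 27, would be over it. These sets share libraries and pool wt and ko, so the 4 cannot be measured against that rate. Rxra was lowest in iBAT ko replicate 2, at 115.9 CPM against 134.0 CPM in the next library, and that library also had the highest immediate early sum. Cebpb was lowest in iWAT wt replicate 3, at 17.5 CPM against 39.8 CPM, the library with the highest lymph node sum (1399 CPM) and the lowest adipocyte sum (8765 CPM). Rxrg was lowest in eWAT ko replicate 3, at 6.44 CPM against 14.7 CPM, the library with the epididymis markers (5093 CPM). Cebpd was highest in eWAT ko replicate 1, at 57.7 CPM against 27.2 CPM, the library with the highest summed glucocorticoid response genes (1111 CPM, 6 genes such as Fkbp5). The part of these markers in the 4 values was not tested.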

How the results depend on the processing

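Of 164 member counts under alternatives, 145 stayed within 1.5 times the reported count and 19 did not. Calls between iBAT and iWAT were 7 on total counts and 2 in wild type libraries only (reported 4), and between iBAT and eWAT 3 in wild type libraries only (reported 5). The 7 stand beside 68.4% of all genes lower and 7.68% higher in iBAT than in iWAT on total counts. Between iWAT and eWAT (reported 0) 1 member was called with at least 10 counts in every library, with DESeq2, with the replicate block, without the 4 libraries with markers of another tissue, on total counts and on total counts without mitochondrial genes, and 2 with limma. Between wild type tissues, iBAT against iWAT gave 6 on total counts, 4 without mitochondrial genes in the totals and 4 without the 4 libraries (reported 2), iBAT against eWAT gave 5 with limma, 5 without the 4 libraries and 6 on total counts (reported 3), and iWAT against eWAT gave 1 with limma (reported 0). Leaving out 1 mouse gave 3 to 5, 4 to 5 and 0 to 1 calls between tissues, 1 to 3, 2 to 3 and 0 between wild type tissues, and 0 for genotype and interaction.

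Values that changed sign and were called on at least one of the scales arose on total counts. For iBAT against iWAT they were -0.66 for Ppard, -0.61 for Cebpa and -0.70 for Nr1h3, and for iBAT against eWAT -0.13 for Pparg, -0.72 for Ppard, -0.72 for Cebpa and -0.67 for Nr1h3. In wild type mice Ppard had -0.66 and -0.58 and Nr1h3 -0.73 and -0.77. Without mitochondrial genes in the totals, Ppard had -0.33 (iWAT), -0.36 (eWAT) and -0.35 (wild type, iWAT) and Nr1h3 -0.38 (iWAT). Other values changed sign without a call on either scale, among them Rxrg on total counts (-0.05, iWAT) and, without mitochondrial genes, Cebpa (-0.30 and -0.37) and Nr1h3 (-0.32, eWAT). These follow the shift of the median of all genes.

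For the genotype the numbers are shared by wt and ko mice without a stated link (correlations of deviations -0.47 to 0.55, 4 of 9 over 0.1), and the replicate block left 0 members called. For tissues the block (mouse) gave 5, 5 and 1 calls, adding Rxrg and Cebpb, and changed no other call. Among single members, DESeq2 also called Rxrg (iBAT against iWAT, adjusted p = 0.04) and Cebpb (iWAT against eWAT, adjusted p = 0.0182), and limma called Klf15 (iBAT against iWAT, adjusted p = 0.0365) and Rxra and Cebpb (iWAT against eWAT, adjusted p = 0.0316 and 0.015).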
